A study of Mus musculus with 7 samples.

Results

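The genes described here are 38 interferon response and antigen presentation genes of the mouse heart, chosen by name, and all 38 were among the 23678 genes tested. Each was well above background on all 7 arrays. The question was whether they differ between hearts that have lost the kinases AKT1 and AKT2 in cardiomyocytes and hearts that have not. RNA came from the heart apex of 3 DKO (double knockout) and 4 control male mice of the strain C57Bl/6, 1 mouse to an array. Control mice were heterozygous for MHC-mercremer, a tamoxifen-dependent Cre recombinase driven by the αMHC promoter, and kept normal Akt genes. DKO mice carried heterozygous MHC-mercremer together with loxP sites around exons 6 and 7 of Akt1 and exons 5 and 6 of Akt2 on both copies. Both groups were 3 months old, both received 500 µg hydroxytamoxifen a day in 5 injections, and both were sampled 10 days after induction, per the study's protocol and design text, so Cre and the drug are shared. The sample titles of both groups carry the word untreated, with no statement of what it refers to. The αMHC promoter is active in cardiomyocytes, so the other cells of a DKO heart keep their Akt genes while contributing RNA to the same extract.

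Interferons are secreted proteins that cells release when sensors find foreign or misplaced nucleic acid. Type I interferons act through IFNAR1 and IFNAR2, JAK1 and TYK2 on a complex that holds STAT2 and IRF9 and binds the interferon-stimulated response element in gene promoters; interferon gamma acts through IFNGR1 and IFNGR2 on genes that carry the gamma-activated site. The induced proteins block viral RNA and its translation, tag proteins with ISG15, attack vacuoles that hold pathogens, and load peptides onto MHC class I molecules for T cells to inspect. In the heart, cardiomyocytes, endothelial cells, fibroblasts and resident macrophages can all express such genes.

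Promoters of part of the members hold interferon motifs. The members were chosen by name as interferon response genes, so an excess of such motifs is not a separate finding. Of the 38 genes, 31 had an entry in the RefSeq promoter table (GRCm38.p6, 250 bases before to 50 bases after the start), and 16 of these (51.6%) held GAAANNGAAA on either strand, the core of the interferon-stimulated response element, as did 3.99% of 27025 genes in the table and 3.71% of the 11656 of them tested here. TTCNNNGAA, the core of the gamma-activated site and the same on both strands, was in 7 members (22.6%) and in 9.55% of all genes. Both motifs were present in 4 members and neither in 12; these are matches of letters, not measured binding. The 8 stretches below, all upstream of the start, come from the ISG15 system and ubiquitin ligases, antiviral effectors, GTPases and an antigen presentation gene. They show how the element is set, with each match in capitals (overlapping matches run together), on the gene's own strand from 5′ to 3′.
Isg15: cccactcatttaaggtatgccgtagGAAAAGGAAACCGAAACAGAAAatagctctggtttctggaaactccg
Ifit1: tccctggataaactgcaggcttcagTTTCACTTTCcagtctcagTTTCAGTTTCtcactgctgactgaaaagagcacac
Ifit3: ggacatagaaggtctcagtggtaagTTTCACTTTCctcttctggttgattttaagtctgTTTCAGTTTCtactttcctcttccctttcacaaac
Rsad2: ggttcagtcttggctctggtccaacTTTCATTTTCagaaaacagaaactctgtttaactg
Trim30a: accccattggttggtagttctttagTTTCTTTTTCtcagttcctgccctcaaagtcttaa
Gbp2: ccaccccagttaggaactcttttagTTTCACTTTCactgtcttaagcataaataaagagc
Igtp: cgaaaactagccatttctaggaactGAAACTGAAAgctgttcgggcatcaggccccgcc
B2m: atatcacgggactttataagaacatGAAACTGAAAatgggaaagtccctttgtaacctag
Their positions on GRCm38.p6 are Isg15 at chr4:156200850-156200921, minus strand; Ifit1 at chr19:34640760-34640838, plus strand; Ifit3 at chr19:34583348-34583441, plus strand. The others are Rsad2 at chr12:26456538-26456597 (minus strand), Trim30a at chr7:104465195-104465254 (minus strand), Gbp2 at chr3:142620579-142620638 (plus strand), Igtp at chr11:58199497-58199555 (plus strand), B2m at chr2:122147523-122147582 (plus strand). Isg15 holds 3 overlapping matches, while Ifit1 and Ifit3 each hold 2 separate ones, and in Igtp 24 bases lie between the match and the start. The members with GAAANNGAAA had a median log2 difference between DKO and control hearts of 0.02 (n = 16, from -0.55 to 0.27). Those without it had 0.09 (n = 15, from -0.26 to 0.40), so the ranges overlapped. The 7 members without a promoter entry had a median of 0.13.

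None of the 38 members passed the test. In limma, with Benjamini-Hochberg adjustment over all 23678 genes, adjusted p-values of the members ran from 0.117 for Eif2ak2 to 0.990 for Sp100, while 4.70% of all genes passed 0.05 (2.41% higher and 2.29% lower in DKO hearts). Log2 differences, DKO minus control, ran from -0.55 to 0.40, with 26 members higher and 12 lower, a median of 0.07 beside -0.02 over all genes, and a median absolute difference of 0.10 beside 0.18. An unadjusted p below 0.05 was reached by 5 members, 3 of them higher (Ifit2, Rtp4 and Parp14) and 2 lower (Eif2ak2 and Trim30a), beside 25.5% of all genes (11.6% higher and 13.9% lower). The groups did not overlap for 4 members, 3 of them higher (Irf1, Ifit2 and Parp14) and 1 lower (Eif2ak2), beside 25.7% of all genes (13.2% higher and 12.5% lower). Both shares, 13.2% and 10.5% of the members, lie below those of all genes.

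The 95% intervals of the differences limit what these 7 hearts allow. They lay within a 2-fold change either way for 37 of 38 members, beside 84.3% of all genes and 90.1% of genes well above background on all 7 arrays; the exception was Dhx58, with an interval from -0.69 to 1.03. Within 0.5 on the log2 scale they lay for 17 members. In whole tissue fewer cells of a type and less RNA per cell cannot be told apart. The plot of the differences with their intervals shows every member.

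**Figure D1:**
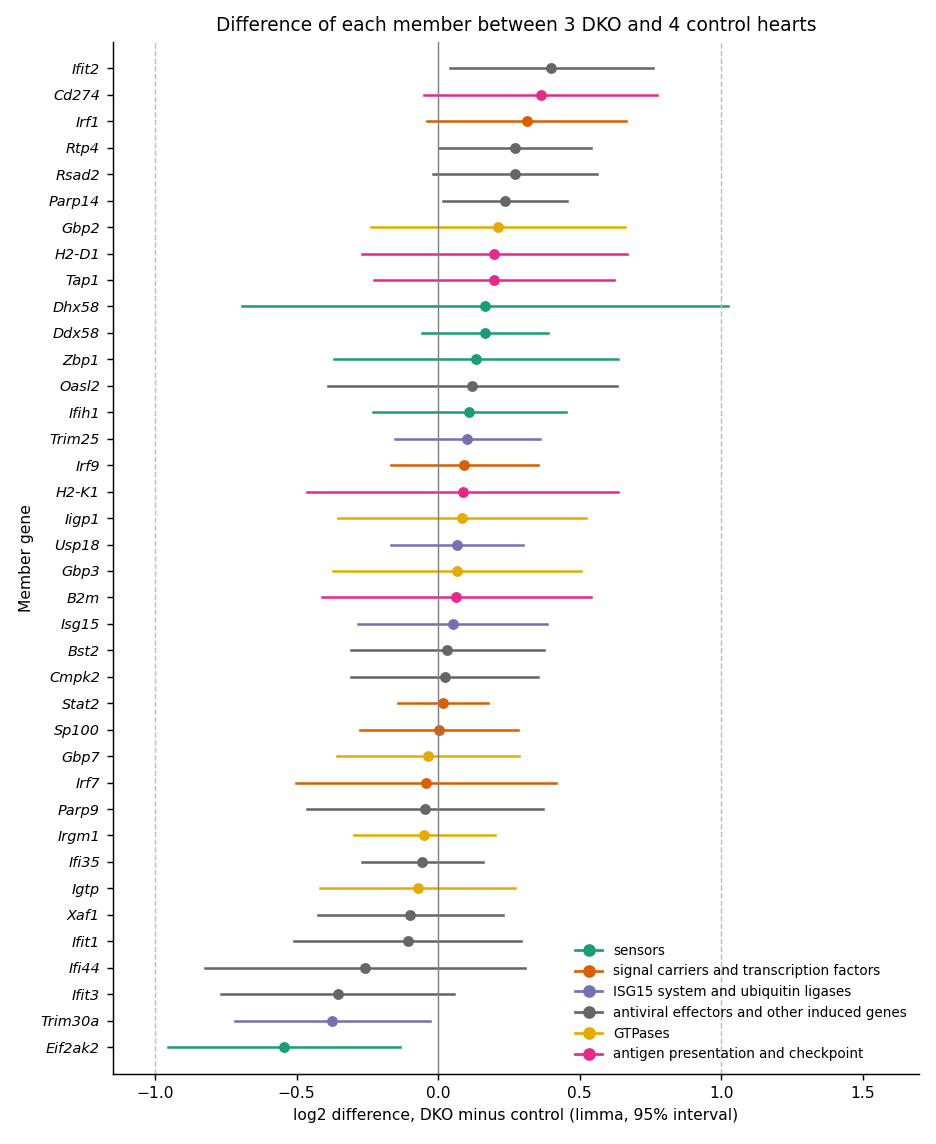
Log2 difference between 3 DKO and 4 control hearts for each of the 38 members, with the 95% interval of the limma fit, sorted by size and coloured by role; dashed lines mark a 2-fold change. Differences run from -0.55 for Eif2ak2 to 0.40 for Ifit2, and the interval reaches past a dashed line only for Dhx58.

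Among the 5 sensors of nucleic acid, 4 were higher and 1 lower in DKO hearts, with a median log2 difference of 0.13. Eif2ak2 encodes PKR, the kinase that halts translation on binding double-stranded RNA. Its normalized log2 signals were 8.40, 8.28, 8.36 and 8.46 in control and 7.40, 7.94 and 8.16 in DKO hearts, here and below in the order of control replicates 1 to 4 and DKO replicates 1 to 3. All 3 DKO hearts lay below all 4 control hearts, with means of 8.38 ± 0.08 (SD, n = 4) in control and 7.83 ± 0.39 (SD, n = 3) in DKO hearts. The log2 difference of -0.55 ± 0.17 (SE), with an interval from -0.96 to -0.13, had an unadjusted limma p of 0.0162 and missed the threshold after adjustment (adjusted p = 0.117). Ddx58, which encodes the RNA sensor RIG-I, measured 9.76, 9.89, 9.76 and 9.80 in control and 9.78, 10.06 and 10.07 in DKO hearts. DKO replicates 2 and 3 were above every control heart and DKO replicate 1 was among them, for a difference of 0.17 ± 0.09 (limma adjusted p = 0.315). Ifih1, which encodes the sensor MDA5, measured 8.49, 8.55, 8.57 and 8.84 in control and 8.44, 8.96 and 8.77 in DKO hearts, with groups that overlapped and a difference of 0.11 ± 0.14 (limma adjusted p = 0.665). Dhx58, whose product LGP2 assists MDA5, spread widest among control hearts of all members: 5.25, 6.39, 6.80 and 6.63 in control and 6.18, 6.54 and 6.58 in DKO hearts. Control replicate 1 alone was far below the other 6 hearts. Zbp1, a sensor of left-handed nucleic acid that can trigger necroptosis, also had control replicate 1 lowest, at 7.45, 8.24, 8.02 and 7.96 in control and 7.74, 8.10 and 8.33 in DKO hearts, and its groups overlapped.

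The signal carriers and transcription factors centred on a median difference of 0.02, with 4 of 5 higher. Irf1 is an interferon gamma-induced factor that itself drives MHC class I and Gbp genes. Its signals were 11.19, 11.66, 11.70 and 11.63 in control and 11.73, 11.79 and 12.05 in DKO hearts. Every DKO heart lay above every control heart, with means of 11.54 ± 0.24 (SD, n = 4) in control and 11.86 ± 0.17 (SD, n = 3) in DKO hearts, with control replicate 1 well below the other 3, and the difference of 0.31 ± 0.15 had a limma adjusted p of 0.238. Irf9, the DNA-binding part of the type I complex, gave 10.69, 10.89, 10.65 and 10.81 in control and 10.64, 10.96 and 10.95 in DKO hearts, with overlap and a difference of 0.09 ± 0.11 (limma adjusted p = 0.628). Stat2, its partner, was the steadiest of the named members at 10.20, 10.16, 10.15 and 10.10 in control and 10.12, 10.22 and 10.16 in DKO hearts, with a difference of 0.02 ± 0.07 (limma adjusted p = 0.902). Irf7, the factor that amplifies type I interferon production, differed by -0.04 ± 0.19 and Sp100, a nuclear body protein, by 0.00 ± 0.12, and neither separated the groups.

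The ISG15 system and ubiquitin ligases held 3 members higher and 1 lower. Trim30a, a mouse TRIM protein induced by interferon that restrains inflammatory signalling, was the lower one at 8.91, 8.67, 8.59 and 8.73 in control and 8.11, 8.67 and 8.28 in DKO hearts. DKO replicates 1 and 3 were below all controls and DKO replicate 2 was level with control replicate 2, for means of 8.73 ± 0.14 (SD, n = 4) in control and 8.35 ± 0.28 (SD, n = 3) in DKO hearts, a difference of -0.37 ± 0.15, an unadjusted limma p of 0.0373 and an adjusted p of 0.169. Trim25, the ligase that activates RIG-I, measured 12.93, 12.70, 13.02 and 12.74 in control and 12.82, 13.03 and 13.01 in DKO hearts, and the groups interleaved (difference 0.10 ± 0.11, limma adjusted p = 0.585). Usp18, which removes ISG15 and damps IFNAR signalling, measured 8.84, 9.01, 9.05 and 9.11 in control and 8.93, 9.09 and 9.18 in DKO hearts, with a difference of 0.07 ± 0.10 (limma adjusted p = 0.703). Isg15 itself differed by 0.05 ± 0.14; its highest heart of 7 was control replicate 4 and its lowest control replicate 1.

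The 13 antiviral effectors and other induced genes split 7 higher to 6 lower, with a median difference of 0.02. The 3 neighbouring Ifit genes of chromosome 19, whose proteins bind viral RNA ends or the translation initiation factor eIF3, had differences of either sign. Ifit2 signals were 8.10, 8.53, 8.54 and 8.59 in control and 8.62, 8.90 and 9.0 in DKO hearts. All DKO hearts were above all control hearts, with means of 8.44 ± 0.23 (SD, n = 4) in control and 8.84 ± 0.20 (SD, n = 3) in DKO hearts, a difference of 0.40 ± 0.15 with an interval from 0.04 to 0.76, an unadjusted limma p of 0.0331 and an adjusted p of 0.160. Ifit3, by contrast, differed by -0.35 ± 0.17 (limma adjusted p = 0.253), and Ifit1 by -0.11 ± 0.17 (limma adjusted p = 0.724), both with overlapping groups. Ifit3 has a near-identical copy, Ifit3b, and its probe may read both.

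Parp14, an ADP-ribosyltransferase, measured 10.92, 11.03, 10.96 and 11.02 in control and 11.04, 11.28 and 11.34 in DKO hearts. Its controls spanned a narrow 0.11, and the DKO hearts lay above them with means of 10.98 ± 0.05 (SD, n = 4) in control and 11.22 ± 0.16 (SD, n = 3) in DKO hearts. The difference was 0.24 ± 0.09, with a limma p of 0.0371 and an adjusted p of 0.169. Rtp4, a chaperone of G protein-coupled receptors that also restrains viral replication, gave 10.99, 10.89, 11.25 and 11.19 in control and 11.22, 11.42 and 11.41 in DKO hearts. DKO replicates 2 and 3 were above every control and DKO replicate 1 was not, for a difference of 0.27 ± 0.11 with a limma p of 0.0472 and an adjusted p of 0.191. Rsad2, which encodes viperin, a maker of a chain-terminating nucleotide, differed by 0.27 ± 0.12 (limma adjusted p = 0.220), and a further Rsad2 probe by 0.39 ± 0.14 (limma adjusted p = 0.150 over probes). Its neighbour on chromosome 12, Cmpk2, a mitochondrial nucleotide kinase, differed by 0.02 ± 0.14.

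Controls were the wider group by SD in 8 of these 13 genes, and Ifi44, Oasl2 and Parp9, with control replicate 1 the lowest heart, had the widest control ranges. Ifi44 signals were 8.08, 9.01, 8.91 and 9.07 in control and 8.47, 8.45 and 8.61 in DKO hearts. Control replicate 1 lay below every DKO heart and the other controls above every DKO heart, for a difference of -0.26 ± 0.24 (limma adjusted p = 0.531); without control replicate 1 the difference was -0.49 with an adjusted p of 0.0432, the only call for any member in any leave-one-out fit. Oasl2, an OAS-like protein, measured 9.35, 10.02, 10.10 and 10.19 in control and 9.80, 10.14 and 10.17 in DKO hearts, and Parp9, the partner of the ubiquitin ligase DTX3L, 9.11, 9.72, 9.75 and 9.80 in control and 9.51, 9.49 and 9.65 in DKO hearts. Both groups overlapped in each, with differences of 0.12 ± 0.22 and -0.05 ± 0.18. Bst2, which encodes tetherin, a protein that holds budding virus on the cell, differed by 0.03 ± 0.14, Xaf1 by -0.10 ± 0.14 and Ifi35 by -0.06 ± 0.09, with adjusted p-values by limma from 0.688 to 0.911 over the 3 genes.

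The 6 interferon-inducible GTPases, which coat and break the vacuoles of intracellular pathogens, showed little difference between groups but much between DKO hearts. Gbp2 measured 10.48, 10.88, 10.81 and 10.77 in control and 10.51, 11.07 and 11.26 in DKO hearts, so that DKO replicate 1 was near the lowest control and DKO replicates 2 and 3 were above every control (difference 0.21 ± 0.19, limma adjusted p = 0.523). Igtp, also called Irgm3, measured 11.62, 11.83, 11.71 and 11.63 in control and 11.33, 11.61 and 11.94 in DKO hearts, with DKO replicate 1 the lowest and DKO replicate 3 the highest of the 7 (difference -0.07 ± 0.15, limma adjusted p = 0.785). Iigp1, also called Irga6, held the same order at its ends with 12.04, 12.25, 12.02 and 11.90 in control and 11.83, 12.00 and 12.58 in DKO hearts (difference 0.08 ± 0.19, limma adjusted p = 0.803). Gbp3, Gbp7 and Irgm1 differed by 0.07 ± 0.19, -0.04 ± 0.14 and -0.05 ± 0.11. The SD was wider in DKO than in control hearts for all 6, with a median of 0.34 against 0.13. Guanylate-binding proteins are close in sequence, so signal may be shared between copies.

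All 5 genes of antigen presentation and checkpoint were higher in DKO hearts, except B2m under quantile normalization, in the authors' values and with array weights (-0.01 each) and in fits without single hearts given below, with a median difference of 0.20, but none separated the groups, and DKO replicate 3 was the highest of the 7 hearts in all 5. Cd274 encodes PD-L1, the checkpoint ligand that interferon gamma induces. It measured 8.67, 8.93, 8.87 and 8.61 in control and 8.83, 9.04 and 9.52 in DKO hearts, for a difference of 0.36 ± 0.17 (limma adjusted p = 0.243). Tap1, a subunit of the transporter that carries peptides to MHC class I, measured 9.45, 9.76, 9.77 and 9.54 in control and 9.52, 9.73 and 10.24 in DKO hearts (difference 0.20 ± 0.18, limma adjusted p = 0.525). H2-D1, a class I heavy chain, measured 13.23, 13.60, 13.53 and 13.50 in control and 13.24, 13.67 and 14.08 in DKO hearts (difference 0.20 ± 0.20, limma adjusted p = 0.563). DKO replicate 3 was the highest of 7 hearts for each of the 3, while DKO replicate 1 lay within the range of the controls. H2-K1, the other classical heavy chain, gave 14.31, 14.70, 14.66 and 14.61 in control and 14.26, 14.48 and 15.24 in DKO hearts, and its DKO SD of 0.51 was the widest of any member. B2m, the light chain shared by class I molecules, differed by 0.06 ± 0.20. Without DKO replicate 3 the differences of Tap1, B2m, H2-K1 and H2-D1 were -0.01, -0.11, -0.20 and -0.01, and that of Cd274 was 0.17. Without control replicate 1 B2m was at -0.04 and H2-K1 at -0.00. Class I genes are close in sequence, so a probe may read more than 1 of them.

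**Figure D2:**
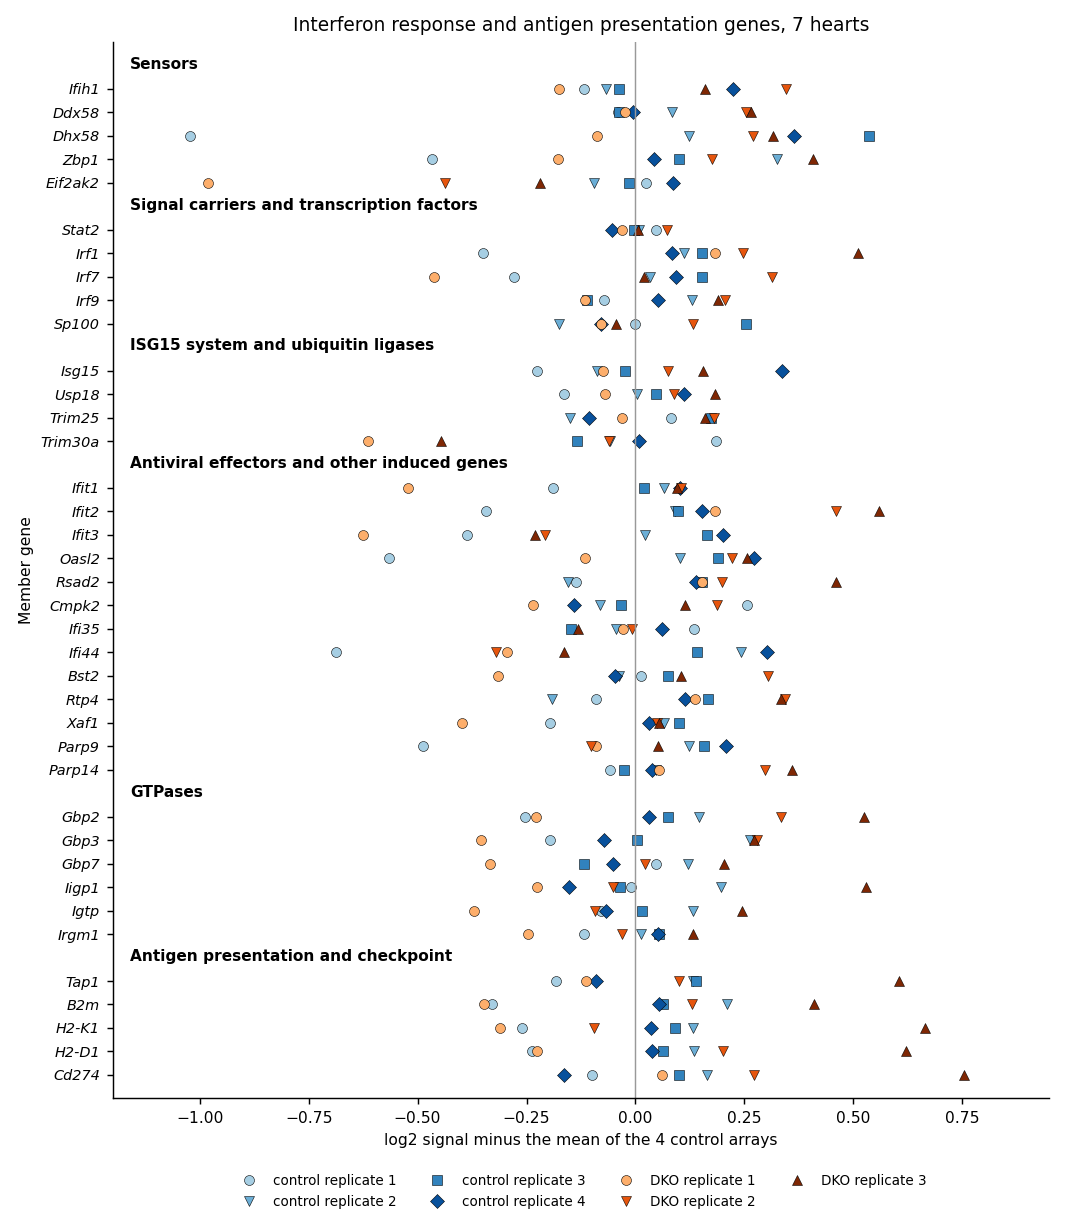
Normalized log2 signal of each member on each of the 7 arrays, minus the mean of the 4 control arrays for that gene, with members grouped by role. DKO replicate 1 (pale circle) is the lowest DKO heart in 35 of 38 members, DKO replicate 3 (dark triangle) is the highest of all 7 in all 5 antigen presentation genes, and control replicate 1 stands apart to the left in Dhx58, Ifi44, Oasl2, Zbp1 and Parp9.

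What the members shared was an order of the mice within the groups, and other gene lists held part of it. DKO replicate 1 was the lowest DKO heart in 35 of 38 members (92.1%), where it was lowest in 28.9% of all genes, and DKO replicate 3 was the highest in 24 (63.2%), beside 29.2% of all genes; both held in 22 members. Within the controls, replicate 1 was lowest in 24 members (63.2%), beside 32.5% of all genes. Over all genes, control replicate 1 was the lowest of the 7 hearts in 20.7% and the highest in 21.1%, the largest share of any heart for both. The median over members of signal minus control mean was -0.15, 0.07, 0.07 and 0.05 in control replicates 1 to 4 and -0.18, 0.15 and 0.20 in DKO replicates 1 to 3, while the median of all genes stayed between -0.04 and 0.01. The lowest control and the lowest DKO heart thus lay close together, below the other 5. For antigen presentation the medians were -0.24, 0.13, 0.09 and 0.04 in controls and -0.23, 0.13 and 0.62 in DKO hearts. DKO replicate 1 also had the lowest DKO median in each role of the other pathway genes described below. Examples are other GTPases (-0.22, 0.19 and 0.32) and other MHC class I genes (-0.10, 0.03 and 0.39). DKO replicate 3 was the highest in some of these roles and DKO replicate 2 in others. The median SD was 0.23 over members and 0.13 over all genes in DKO hearts, and 0.16 for both in controls. DKO was the wider group in 24 of 38 members and in 9888 of 23678 genes. Members are measured in the same 7 hearts, so these counts describe 7 mice and are not 38 separate observations.

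**Figure D3:**
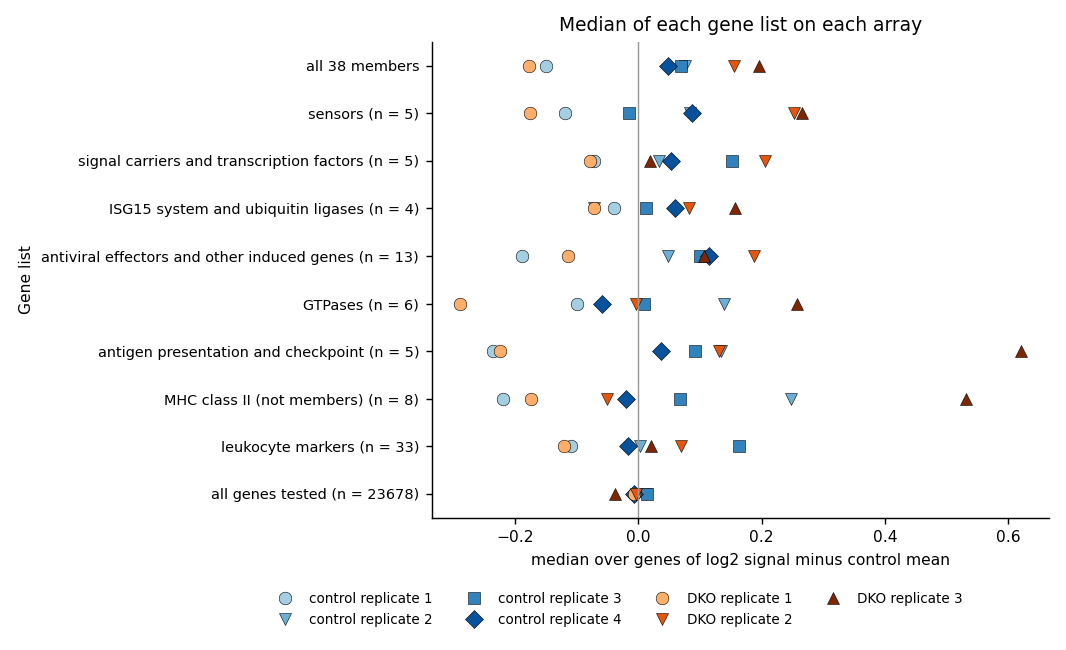
Median over each gene list of log2 signal minus the control mean, 1 point per array, for the 38 members, their 6 roles, MHC class II genes, leukocyte markers and all genes tested. Control replicate 1 and DKO replicate 1 lie to the left in the members (-0.15 and -0.18), DKO replicate 3 lies far to the right in antigen presentation (0.62) and MHC class II (0.53), and all genes lie near 0.

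Leaving out single hearts moved the members' summary to different degrees. Without DKO replicate 1 the median difference over members was 0.20 with 32 of 38 higher, without DKO replicate 3 it was -0.01 with 16 higher, and without control replicate 1 it was 0.00 with 20 higher. Without control replicates 2, 3 or 4 it was 0.08, 0.08 and 0.07, and without DKO replicate 2 0.03. On the slide, DKO replicate 3 lay in row 1 with control replicates 1, 3 and 4, and DKO replicates 1 and 2 lay in row 2 with control replicate 2; with row as a block the median was 0.10. The share of probes well above background was lowest in DKO replicate 1, at 50.9%, and ran from 52.1% to 55.7% in the other 6. Control replicate 1 had the most outlier spots, 249 against 78 to 153 on the other arrays. Over all genes it correlated at 0.984 to 0.987 with the other controls, which correlated at 0.992 to 0.994 among themselves. The part of slide row and signal quality in the order of the mice was not tested.

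**Figure D4:**
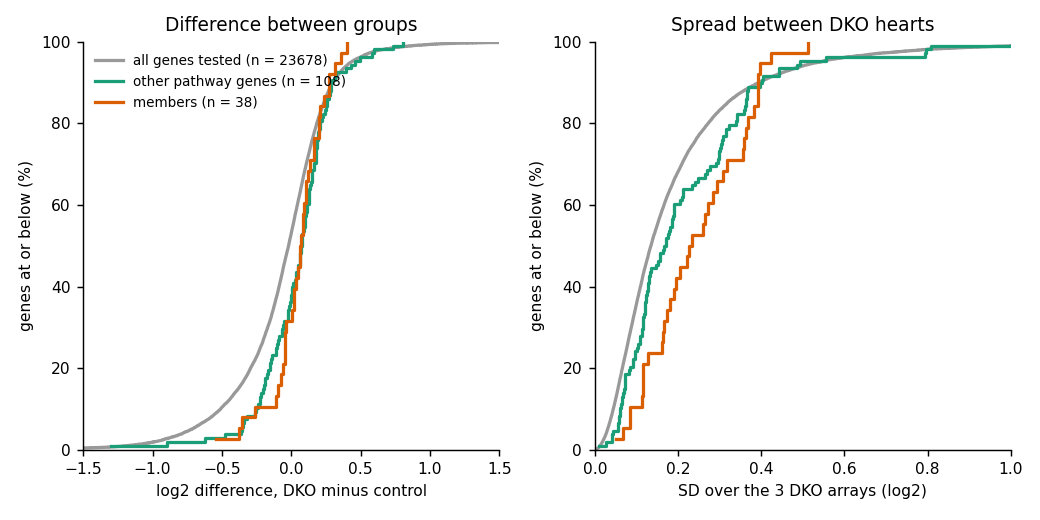
Cumulative share of genes against the log2 difference between groups (left) and against the SD over the 3 DKO arrays (right), for members, other pathway genes and all genes tested. The members' differences have a median of 0.07 against -0.02 over all genes. Their median absolute difference is 0.10, against 0.18 over all genes and 0.16 over genes well above background on all 7 arrays. The members' SDs between DKO hearts are larger than those of all genes (median 0.23 against 0.13).

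Genes of the same pathway outside the 38 members were read from a list ordered by role, of which 108 of 128 were tested; 10 had only probes near background and 10 no matched probe. Of the 108, 5 rose and 1 fell in DKO hearts, beside backgrounds of 2.41% and 2.29%; 19 (17.6%) had an unadjusted p below 0.05 and 19 (17.6%) had groups that did not overlap, beside 25.5% and 25.7% of all genes. Probes for the ligands Ifnb1, Ifng, Ifna2, Ifna4 and Ifnk were well above background on 0 arrays, and of the 4 ligands tested none passed; Il15, a cytokine of NK and memory T cells that interferon induces, differed by -0.48 ± 0.13 (limma adjusted p = 0.0869). Among 6 receptor chains Ifnlr1, the interferon lambda chain, rose, with signals of 8.93, 8.62, 8.79 and 8.74 in control and 9.17, 9.15 and 9.28 in DKO hearts. Its difference of 0.43 ± 0.09 was 1.35-fold (limma adjusted p = 0.0487). Ifnar1, the type I chain, was lower in every DKO heart but did not pass, with a difference of -0.62 ± 0.20 (limma adjusted p = 0.117).

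Of 10 kinases, signal carriers and feedback genes, 2 rose. Jak1, the kinase shared by all interferon receptors, measured 11.53, 11.50, 11.58 and 11.44 in control and 12.00, 12.23 and 12.05 in DKO hearts, so that the lowest DKO heart was above the highest control. The log2 difference was 0.58 ± 0.08 (limma adjusted p = 0.0180). Socs3, a feedback inhibitor of cytokine receptors that act through STAT3, measured 8.90, 8.94, 8.91 and 8.85 in control and 9.27, 9.19 and 9.41 in DKO hearts, 1.31-fold higher with a difference of 0.39 ± 0.08 (limma adjusted p = 0.0389).

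Of 10 other interferon-inducible GTPases tested, 2 rose (20%, beside 2.41% of all genes). The rest did not pass, as none of the 6 GTPase members did. Gbp6 measured 9.61, 9.60, 9.59 and 9.51 in control and 10.36, 10.46 and 10.32 in DKO hearts, 1.75-fold higher with a difference of 0.80 ± 0.07 (limma adjusted p = 0.00620). Its 3 DKO hearts lay close together, and DKO replicate 1 was not the lowest of them. Gbp10, a near-identical copy, differed by 0.18 ± 0.13, so which copy the Gbp6 probe reads is uncertain. Gbp9 measured 6.42, 5.87, 6.13 and 6.21 in control and 6.62, 7.02 and 7.03 in DKO hearts, 1.66-fold higher with a difference of 0.73 ± 0.16 (limma adjusted p = 0.0493).

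Other roles stayed short of the threshold. Among the 12 tested genes of the immunoproteasome and peptide loading, 10 were higher in DKO hearts, but none passed. An unadjusted limma p below 0.05 was reached by 6 (50%, with 5 higher and 1 lower), beside 25.5% of all genes. In 7 (58.3%, with 6 higher and 1 lower) the groups did not overlap, beside 25.7% of all genes. The closest were Pdia3, which edits disulfides in the loading complex, at 0.50 ± 0.12 (limma adjusted p = 0.0690), and the chaperone Calr at 0.59 ± 0.17 (limma adjusted p = 0.0914). Both are also general chaperones of the endoplasmic reticulum. Among 11 tested of 13 listed MHC class I genes 7 were higher, with H2-Q4 at -0.35 ± 0.13 and H2-T23 at 0.32 ± 0.16; H2-Ke6 on that list is an enzyme gene of the region, not a class I chain. All 8 MHC class II genes had overlapping groups and 7 were higher, with medians over the genes of -0.17, -0.05 and 0.53 in DKO replicates 1 to 3, the same order as in the antigen presentation members. Nucleic acid sensing genes were led by Myd88, an adaptor of Toll-like receptors, at 0.29 ± 0.08 (limma adjusted p = 0.0987) and Tlr7 at 0.27 ± 0.14. Among other IRF genes Irf2bp1, a corepressor, was at 0.29 ± 0.08 (limma adjusted p = 0.0758) and Irf4 at -0.36 ± 0.16. Of 24 other induced effectors none passed, with Slfn2 at 0.25 ± 0.10 and Oas2 at -0.20 ± 0.09 nearest.

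Of 5 chemokines tested 1 fell. Ccl12, a monocyte chemokine, measured 8.28, 8.59, 8.31 and 8.42 in control and 7.49, 7.38 and 7.64 in DKO hearts, 1.86-fold lower with a difference of -0.90 ± 0.11 (limma adjusted p = 0.0106). Every DKO heart was far below every control. Cxcl9 was at -0.15 ± 0.21 and Cxcl10, Ccl5 and Ccl2 at -0.34 ± 0.60, -0.10 ± 0.35 and -0.09 ± 0.18, all with overlap. Only Gbp6 of the 6 genes kept its call in all 7 leave-one-out fits. Ccl12 kept it in 6 (adjusted p = 0.0536 without DKO replicate 1) and Jak1 in 3 (up to 0.0632, without control replicate 4), by limma. Gbp9 and Ifnlr1 kept it in 1 (0.145 and 0.143 without DKO replicate 3) and Socs3 in none (0.113 without DKO replicate 1).

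**Figure D5:**
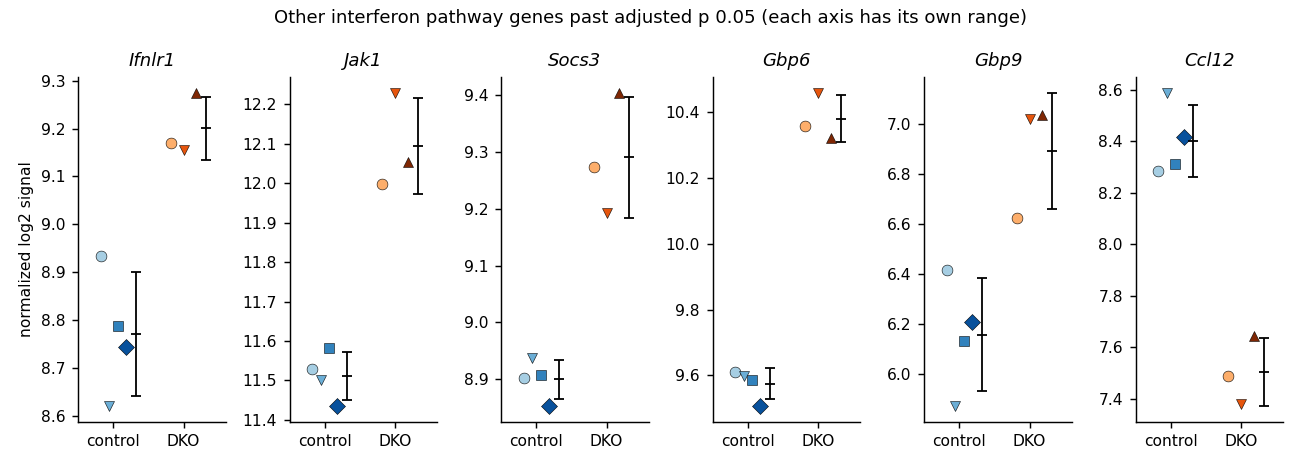
Normalized log2 signal of the 6 other pathway genes past an adjusted p of 0.05, 1 point per heart with the mean and SD beside each group; each panel has its own axis range. Ifnlr1, Jak1, Socs3, Gbp6 and Gbp9 are higher and Ccl12 is lower in DKO hearts, with no overlap in any.

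Cell type and genotype were checked on the same arrays. Of 74 marker genes 63 were tested, and all 7 cardiomyocyte markers were well above background on all 7 arrays. The 1 marker called was Myh11 of mural cells, which rose by 0.63 ± 0.14 (limma adjusted p = 0.0487). Of the 5 mural markers 3 were higher and 2 lower, with Acta2 at -0.41 ± 0.14 (limma adjusted p = 0.128). All 6 endothelial markers were higher in DKO hearts (2 without overlap) and 6 of 7 cardiomyocyte markers lower (Ryr2 and Actc1 without overlap), none of them called. Those without overlap were 33.3% of the endothelial and 28.6% of the cardiomyocyte markers, beside 25.7% of all genes. Of 43 leukocyte markers 33 were tested, and none passed in either direction. An unadjusted limma p below 0.05 was reached by 9 (27.3%), beside 25.5% of all genes. Probes for Cd3g, Cd8a, Ncr1, Klrb1c, Cd79a, Mpo and Xcr1 were well above background on 0 arrays. The summed leukocyte signal ran from 152424 to 171153 in control and from 130425 to 154347 in DKO hearts. Without its 3 brightest probes, Ly6c2, Siglech and Csf3r, it ran from 23092 to 25693 and from 22743 to 28485. The median over leukocyte markers was -0.11, 0.00, 0.16 and -0.02 in controls and -0.12, 0.07 and 0.02 in DKO hearts, and Ptprc, on all leukocytes, was at -0.34, -0.08 and 0.22 in DKO hearts. Macrophage and monocyte markers were at -0.16, 0.27 and 0.13. DKO replicate 1 was the lowest DKO heart in these lists and for NK cell markers (-0.23, 0.02 and 0.03). The same held for fibroblast (-0.07, 0.25 and 0.06) and erythroid markers (-0.20, 0.44 and 0.14). It was not the lowest for dendritic (-0.05, -0.20 and -0.07), T cell (-0.05, -0.12 and -0.10), B cell (0.80, 0.42 and 0.48) or neutrophil markers (0.24, 0.37 and -0.47). Nor was it the lowest for cardiomyocyte, atrial, endothelial or mural markers. The part of leukocytes and other cell types in the order of the mice was not tested. All 3 Akt2 probes fell, with log2 differences of -2.05, -2.29 and -0.68 (limma adjusted p = 0.000203, 0.000295 and 0.0335 over probes), and the 2 Akt1 probes were at 0.17 and 0.47 with adjusted p-values of 0.199 and 0.139. Where the Akt probes lie relative to the deleted exons was not examined, so the Akt1 probes do not test that deletion.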

How the data were processed

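RNA of 7 mouse hearts was measured on 1-colour Agilent arrays, all on 1 slide in 1 scan. The deposited intensity values are processed signals that the authors' scanner software, Feature Extraction 12.0.3.1, had background-subtracted, per the file headers. The authors' deposited log2 table is used as an alternative. Its scale, centring and direction are not stated; it matched log2 values quantile-normalized and centred on each probe's median (column medians of 0).

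Here log2 signal was centred on each array's 75th percentile (mean 9.14 added back). Control and outlier spots were left out, and spots of a probe were averaged. Of 56605 probes, 32994 were named through RefSeq accessions and 23611 have no symbol here. Probes well above background, per the deposited scanner flags, on at least 3 arrays were kept, and the brightest was taken per gene, giving 23678 genes, those without a symbol counted by accession. No spot was saturated. The 38 members had 56 matched probes, of which 54 were kept; in 10 of 14 members with more than 1 kept probe all lay on the same side of 0, and in Ifi35, Irf9, Stat2 and Xaf1 they did not.

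DKO and control arrays were set against each other by a limma fit (version 3.58.1, R 4.3.3, two-sided, Benjamini-Hochberg, threshold 0.05), and the script was tested on simulated data. The number of mice limits the precision. Replicate numbers did not pair the samples. Values of each array are given for members with an unadjusted p below 0.05, the 3 with the smallest p per role and the 5 with the widest control range; H2-K1 was added after its values were seen. Of the other pathway genes, those past the threshold and up to 2 with the smallest p per role are named; others named there were added after their values were seen. The members and lists were chosen with earlier results of these data known. Alternatives were other scalings, background corrections, filters, probe rules, variance models, blocks and leaving out each replicate. The scanner files hold no mean signal column here, so normexp used median signals.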

Additional observations from a re-analysis of the deposited data

Results flagged for a closer look

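In 4 of 38 members control replicate 1 lay apart from the other 3 controls, by a gap that exceeded Dixon's 95% critical value for 4 samples. Ifi44 was at 8.08 against 8.91 for the next control, a gap of 0.836 of the range. Parp9 was at 9.11 against 9.72, a gap of 0.877 of the range. Irf1 was at 11.19 against 11.63, a gap of 0.864 of the range. Ifit2 was at 8.10 against 8.53, a gap of 0.876 of the range. Among all genes 6.50% met the same criterion, beside 10.5% of the members, and chance gives about 1 in 20 groups. The genes share their hearts, so the 4 are not separate events. Control replicate 1 also stood apart over all genes, with the most outlier spots and the lowest correlations with the other controls. Without control replicate 1, Ifi44 was lower in DKO hearts by limma (difference -0.49, adjusted p = 0.0432).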

How the results depend on the processing

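With all arrays in the fit, 0 members were called in any of 13 alternatives, and the members' median difference ran from 0.02 (array weights) to 0.10 (slide row as a block). No called value turned its sign, while 23 of 38 members, none of them called, changed sign in at least 1 alternative. Genes called over the whole table, 1114 as reported, were 601 and 709 with normexp (75th percentile and quantile), 121 with no filter, 2007 with trended variance, 1680 with array weights and 288 with slide row as a block. The other pathway genes called, 6 as reported, were 2 under each normexp setting and with slide row as a block (Gbp6 and Ccl12). They were 1 with no filter (Gbp6) and 9 with trended variance (Il15, Calr and Pdia3 added). With robust variance 4 were called (without Ifnlr1 and Gbp9), and with a gene's probes averaged 5 (without Gbp9). Gbp9 was called in 6 of the 13 alternatives, with differences from 0.39 to 0.86. Leaving out 1 replicate each, genes called ran from 160 to 1127, members called from 0 to 1 (Ifi44), the members' median from -0.0057 to 0.20 and pathway genes called from 1 to 5. Same-numbered samples correlated at 0.13, 0.01 and 0.03 in their deviations, which does not show that numbers pair the mice; with the replicate block, which drops control replicate 4, 1 gene, 0 members and 0 pathway genes were called and the median was 0.07. Leaving out control replicate 1 and DKO replicate 1 together, an alternative chosen after seeing the data, gave 28 genes, 0 members and 0 pathway genes, with a median of 0.15. All 38 members were well above background on 7 arrays. Dhx58 was the dimmest of them, with means of 6.27 in control and 6.43 in DKO hearts, and the part of low signal in its spread was not tested.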
